A study of Homo sapiens with 12 samples.

Results

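The MYC domain is the 4 Mb of chromosome 8 from 127000000 to 131000000 (hg19) around MYC, the gene of a transcription factor that drives cell growth. MYC lies at 128748315 to 128753680, and PVT1, a long noncoding RNA gene that follows it in the same direction, at 128806779 to 129113499. The domain's members were all peaks of histone H3 acetylated at lysine 27 (H3K27ac) that overlap this interval in 12 deposited lists, 471 of 233262 peaks in all. Merging the overlapping peaks of the 8 lists from unmodified cells gave 168 regions in the domain, of 70648 in the genome.

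Chromatin immunoprecipitation and sequencing of H3K27ac was done in human cancer cell lines. The lung adenocarcinoma lines were H358 and H2009, with 2 libraries each, and the endometrial carcinoma line was Ishikawa, also with 2. The squamous lung carcinoma line HCC95 had 1 library. BICR31 had 1 library and is a head and neck squamous line in the design text, although its own sample label names lung adenocarcinoma. Another 4 libraries were made from H2009 and carry the labels e3KRAB1, e3KRAB2, Empty and Control, 1 each. The labels expand neither e3 nor KRAB, state no treatment for any sample, and give nothing on whether the replicates came from separate cultures. A p-value here therefore measures spread between libraries that may be technical replicates, and each cancer type rests on 1 or 2 lines. The peak names in the library labelled e3KRAB2 carry a control tag, which goes against its label. Those in the libraries labelled Control and e3KRAB1 carry tags that the labels do not explain, so the identity of these libraries rests on their labels alone.

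H3K27ac marks active promoters and enhancers, the stretches of DNA that raise transcription of a gene from a distance. MYC has few neighbouring genes and is known to be driven by enhancers spread over a wide desert on both sides, with different enhancers active in different tissues. Stretches 3′ of MYC are gained in lung adenocarcinoma and in endometrial carcinoma, and the study addressed the enhancers in them. PVT1 is known as a gene whose promoter competes with that of MYC for such enhancers. By a RefSeq gene table of another build (GRCh38), used for names and order only, 16 of 17 listed genes of the domain were found. On the 5′ side they run LRATD2, PCAT1, CASC19, CCAT1, CASC8, CCAT2, POU5F1B and CASC11, and on the 3′ side PVT1, MIR1208, LINC00977, CCDC26, GSDMC, CYRIB and ASAP1. No peak was tied to any of these other genes.

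Distances below run from the MYC start. The lung window lies 350 to 550 kb 3′ of MYC and the endometrial window 700 to 900 kb. PVT1 was counted from 5 kb before its start to its end, so the lung window was counted from the PVT1 end onward. A peak was placed by its midpoint. Called bases are the summed widths of the peaks. Fold enrichment is the authors' value per peak over local background; the Ishikawa lists give a score in its place. A value is also given as its percentile, the percent of peaks of the same list with a lower value, since values of different list forms are not on one scale. The H358 and H2009 lists are narrowPeak, HCC95 and BICR31 broadPeak, and Ishikawa a 5-column form, so the type of line and the form of the list cannot be told apart. Read numbers are not in peak lists, so the depth is unknown; a peak also does not tell fewer acetylated cells from less acetylation per cell.

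Numbers of peaks in the domain were 64 and 68 in H358, 52 and 59 in H2009, 44 in HCC95, 102 in BICR31, and 30 and 32 in Ishikawa. Called bases came to 25.8 and 30.4 kb in H358, 17.6 and 22.5 kb in H2009, 49.7 kb in HCC95, 117 kb in BICR31, and 67.8 and 46.4 kb in Ishikawa. BICR31 had the most of both, and it also had the longest list, with 42148 peaks against 23400 to 27311 in the other 7. Ishikawa had the fewest peaks, but wide ones, with median widths of 1800.5 and 1288.5 bp against 308.5 to 370 bp in H358 and H2009.

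**Figure D1:**
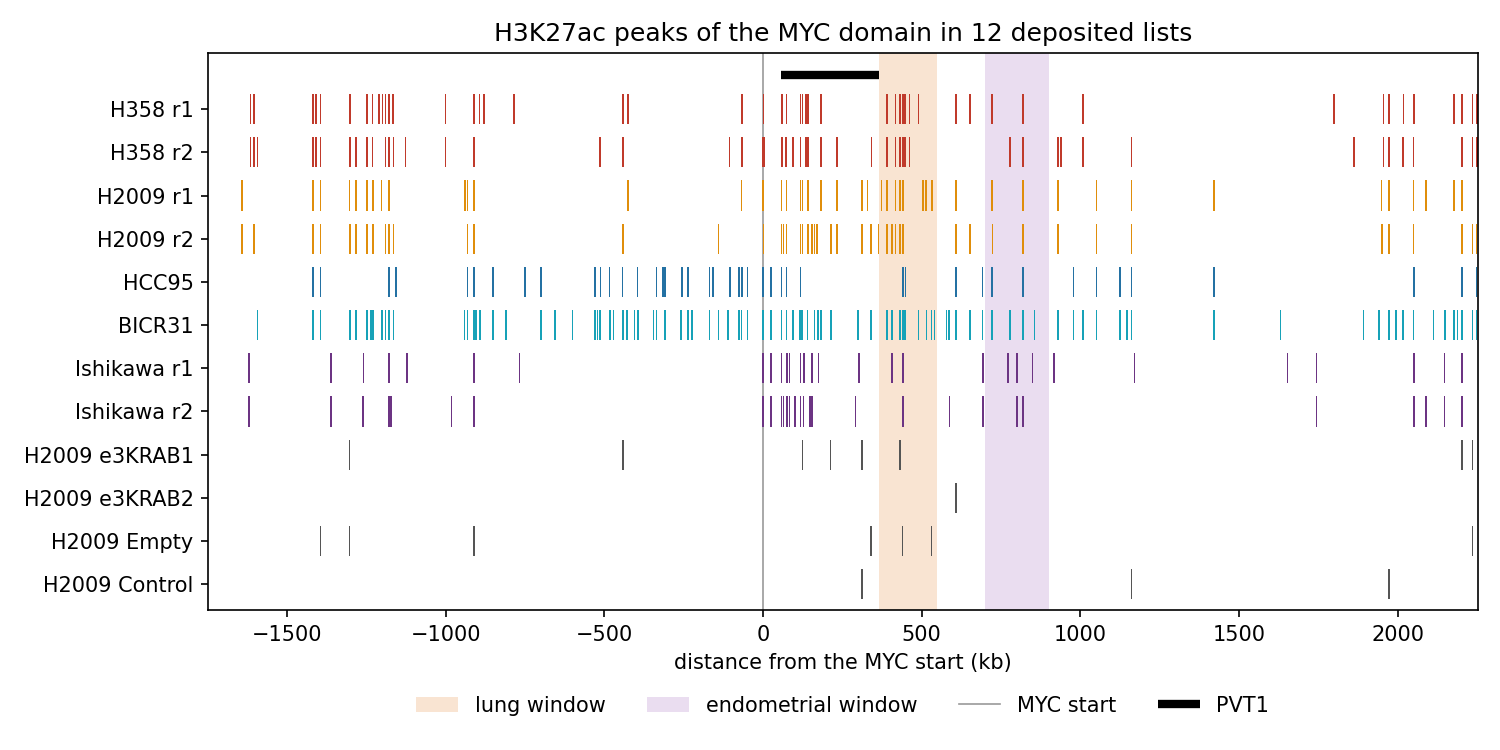
H3K27ac peaks of the 12 lists (rows; r1 and r2 are replicates) against the distance from the MYC start in kb, with PVT1 as a black bar and the 2 windows shaded. Peaks narrower than 5 kb are drawn 5 kb wide. HCC95 and BICR31 have 14 and 19 peaks in the last 500 kb before MYC, where Ishikawa has 0, and the short H2009 lists hold 1 to 9 peaks each.

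Of the 168 regions, 9 had a peak in every library (5.36%, against 12.1% of regions in the genome). All 9 are described below. A further 3 regions had peaks in all libraries of 4 of the 5 lines, 2 of them far on the 5′ side and 1 in the endometrial window at 129567146 to 129568342. Regions with a peak in 1 library numbered 77 (45.8%, against 47.7% in the genome). Regions seen in all libraries of 1 line and in no other numbered 6 for H358 (1.32% of regions in the genome), 2 for H2009 (1.27%), 6 for HCC95 (6.20%), 33 for BICR31 (21.9%) and 7 for Ishikawa (5.11%). As shares of the domain these were 3.57%, 1.19%, 3.57%, 19.6% and 4.17%. Regions of HCC95 and BICR31 only numbered 13, or 7.74% of the domain's regions against 3.56% in the genome, and H358 and H2009 together had 1 region of their own (0.497% in the genome).

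Replicates agreed better in the domain than lists of different lines did. The Jaccard index, called bases in both lists over those in either, was 0.405 between the H358 replicates, 0.332 between those of H2009 and 0.525 between those of Ishikawa. It averaged 0.131 over the 25 pairs of different lines and ran from 0.0538 to 0.258. Replicates share a list form, while most pairs of different lines differ in form, so this contrast mixes line with form. Between different lines of the same form the index was higher, at 0.196 to 0.258 for H358 with H2009 and 0.216 for HCC95 with BICR31. The mean of the 3 replicate pairs exceeded that of the other pairs by 0.290, the highest of the 420 ways to place 3 pairs among 8 libraries (exact one-sided permutation p = 0.00238, the smallest possible). With both windows left out the difference was 0.281 (exact one-sided permutation p = 0.00238). For the 4 narrowPeak lists taken alone it was 0.131, with an exact permutation p of 0.333, the smallest that 3 assignments allow.

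On the 5′ side of MYC, HCC95 and BICR31 had more peaks than the other lines in the last 500 kb and fewer than H358 beyond 1000 kb. The last 500 kb before MYC held 14 peaks in HCC95 and 19 in BICR31, against 3 and 4 in H358, 2 and 2 in H2009, and 0 in both Ishikawa libraries. Called bases there came to 22139 in HCC95 and 25712 in BICR31, against 643 to 1150 in the 4 lung adenocarcinoma libraries. The next 500 kb held 7 peaks in HCC95 and 15 in BICR31, against 6 and 3 in H358, 3 and 2 in H2009, and 2 and 2 in Ishikawa. Beyond 1000 kb 5′ the order differed, with 4 peaks in HCC95 and 12 in BICR31, against 17 and 18 in H358, 10 and 14 in H2009, and 5 and 5 in Ishikawa. By called bases BICR31 was above H358 there as well, with 16984 against 7059 and 8494. HCC95 had 3174 called bases, H2009 3790 and 5270, and Ishikawa 15958 and 10012. The lead of H358 over BICR31 beyond 1000 kb thus held for the number of peaks only. The 5′ side as a whole took 61.8% of the domain's called bases in HCC95 and 49.9% in BICR31. It took 35.2% to 38.0% in H358, 30.3% to 31.6% in H2009 and 23.1% to 25.3% in Ishikawa. In Ishikawa replicate 1 no peak was called over 765 kb, from 127981593 to 128746255, at the edge of the MYC promoter peak.

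**Figure D2:**
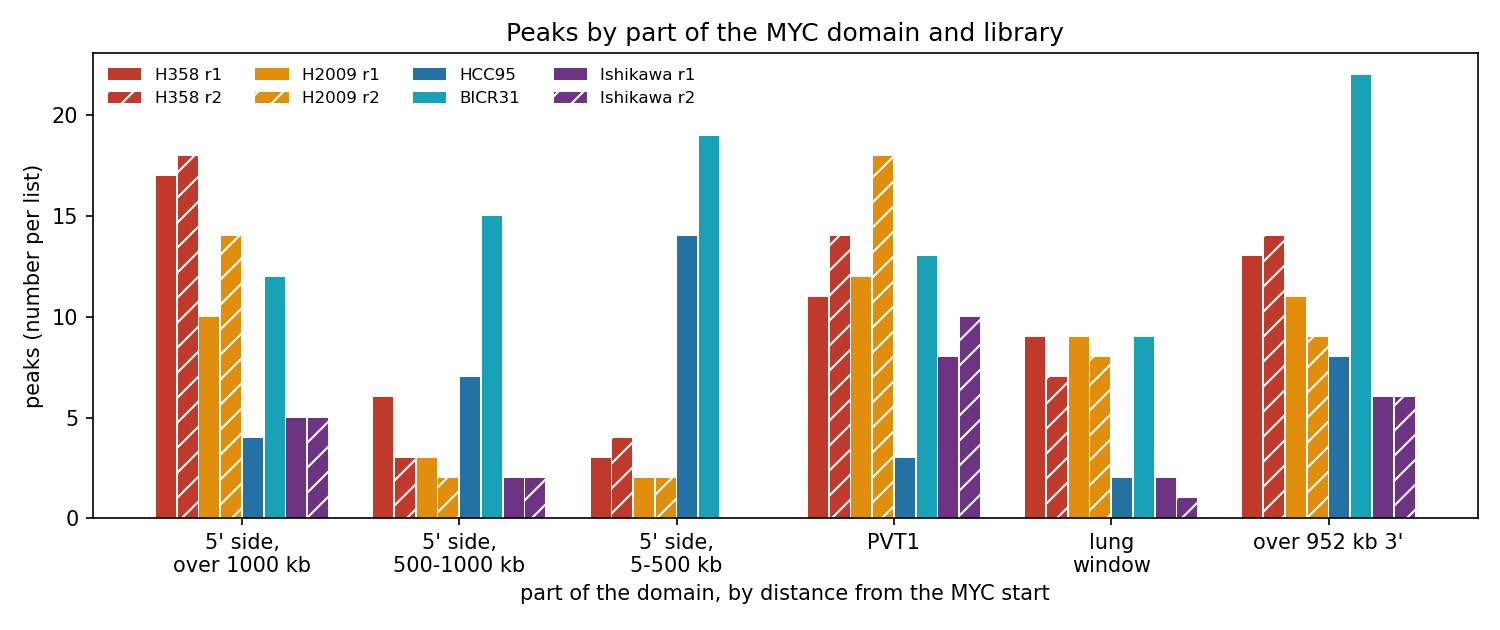
Number of peaks (vertical axis) in 6 parts of the domain, by distance from the MYC start, with a bar for each library of unmodified cells (hatched, replicate 2). HCC95 and BICR31 lead within 500 kb 5′ of MYC, H358 leads beyond 1000 kb 5′ with 17 and 18 peaks, and HCC95 has 3 peaks in PVT1 against 8 to 18 in the other libraries.

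Of the 74 regions on the 5′ side, 11 (14.9%) had peaks in HCC95 and BICR31 and in no other library, against 3.56% in the genome. They lay between 48.3 and 850 kb before MYC, 8 of them among the 25 regions of the last 500 kb. Measured on the HCC95 list alone, 11 of its 25 regions on the 5′ side (44%) were shared with BICR31 only, against 10.8% of its regions in the genome and 9.96% on the rest of chromosome 8. Sharing with BICR31 in itself was near the genome's level, with a BICR31 peak in 19 of the 25 regions (76%) and in 10 of the 14 of the last 500 kb (71.4%), against 73.7% in the genome. No test was made of this difference, since neighbouring regions are not replicates and both lines have 1 library. The remaining regions of the last 500 kb with an HCC95 peak were 4 of HCC95 alone and 2 shared with BICR31 and at least 1 library each of H358 and H2009. Cutting all 8 lists to the length of the shortest, 23400 peaks, left 1 of the 11 when peaks were ranked by fold and 5 when they were ranked by q, a ranking added after the data had been seen; the higher-ranked 50% of each list left 0.

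The regions of the squamous pair were wide and of low fold. Their widths ran from 869 to 3870 bp, with a median of 1980 bp. The widest, 128490208 to 128494077, lay 256 kb before MYC and had 2813 called bases in HCC95 at a fold of 2.09 and 1404 in BICR31 at a fold of 3.70. The nearest, 128699044 to 128701023, lay 48.3 kb before MYC, with folds of 2.64 in HCC95 and 3.25 in BICR31. Over the 11 regions the HCC95 fold had a median of 2.82, at the 3.86th percentile of its list, and its q a median at the 25.3rd percentile. The BICR31 fold had a median of 3.28, at the 17.9th percentile, and its q a median at the 41.8th percentile. These peaks thus stood low in their lists by fold and less low by q.

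Lung adenocarcinoma peaks in the last 500 kb were few, and 2 regions had them in 3 of the 4 libraries. The region 128304184 to 128308191, 442 kb before MYC, had peaks in both H358 libraries, H2009 replicate 2, HCC95 and BICR31. There H358 had a fold of 5.40 in replicate 1 and a highest fold of 4.77 in replicate 2, H2009 had 4.99, HCC95 2.12 over 3713 bp and BICR31 2.41 over 2774 bp. The region 128679891 to 128682813, 67.0 kb before MYC, had folds of 5.46 and 5.22 in H358, 4.45 in H2009 replicate 1, 2.59 in HCC95 and 3.19 in BICR31. Neither region had a peak in Ishikawa, and no region of the last 500 kb had peaks in both H2009 libraries.

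Far on the 5′ side lay the strongest peaks of the lung adenocarcinoma lines there. The region 127353227 to 127354361, 1394.5 kb before MYC, had folds of 9.55 and 9.08 in H358 and 10.3 and 9.85 in H2009, with HCC95 at 3.97 and BICR31 at 5.47 and no Ishikawa peak. In H358 and H2009 these were at the 96.6th to 99.4th percentile of their lists. The HCC95 fold was at the 59.0th percentile. That of BICR31 was at the 93.3rd and was also its highest on the 5′ side. The region 127330812 to 127331563, 1417 kb before MYC, had peaks in the same 6 libraries. Of the 7 regions on the 5′ side with peaks in all 4 lung adenocarcinoma libraries, 6 lay beyond 1000 kb and 1 between 500 and 1000 kb. All 7 also had a BICR31 peak (92.5% of such regions in the genome), 4 had an HCC95 peak (83.1%) and 2 had peaks in both Ishikawa libraries (84.7%). Over the whole domain 20 regions had peaks in all 4 lung adenocarcinoma libraries, of which 19 had a BICR31 peak, 12 (60%) an HCC95 peak and 9 (45%) peaks in both Ishikawa libraries.

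Peaks in every library occurred at 2 places on the 5′ side. The region 127566960 to 127571515, 1179 kb before MYC, spans 4556 bp. Ishikawa covered all of it in replicate 1 with a score of 305.01 (80.0th percentile) and had a score of 554 (97.3rd percentile) in replicate 2, its highest values on the 5′ side. HCC95 had a fold of 4.53 and BICR31 3.85 there, and the narrowPeak lists split it into 2 to 4 peaks per library. The region 127836906 to 127837650, 911 kb before MYC, had folds of 6.89 and 6.60 in H358 and 5.57 and 5.15 in H2009, with HCC95 at 4.16 and BICR31 at 4.33 and low Ishikawa scores of 76.0 and 90.2. The highest HCC95 fold on the 5′ side was 5.75, at 127817348 to 127817986, in a region that also had peaks in BICR31 (5.43) and both H2009 libraries (7.17 and 5.94) and none in H358 or Ishikawa.

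Ishikawa had 3 regions of its own on the 5′ side (4.05% of 74 regions, against 5.11% in the genome), all beyond 1000 kb. The widest, 127384229 to 127390863, spans 6635 bp, the widest region of any line or pair of lines on its own in this flank. It had 6635 called bases in replicate 1 and 4618 in replicate 2, with scores of 63.8 and 172. The region 127488226 to 127490656 had scores of 146 and 219. On the 5′ side the Jaccard index of Ishikawa was 0.0347 to 0.0365 with HCC95 and BICR31, while HCC95 and BICR31 had 0.197 with each other.

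The region over the MYC start, 128746256 to 128751268, had a peak in every library, but the place and extent of the peaks differed. Peaks spanned the MYC start in Ishikawa, with widths of 4580 and 4331 bp, and in BICR31, with 3837 bp. In the other 5 lists the nearest peak began 0.274 to 1.86 kb after the start, and its width was 1011 and 302 bp in H358, 241 and 449 bp in H2009, and 423 bp in HCC95. H358 replicate 2 had 3 peaks in this region, with 1189 called bases in all. Fold of the nearest peak was 3.03 and 3.43 in H358 and 3.11 and 3.14 in H2009, with HCC95 at 2.25 and BICR31 at 2.61. Those folds were at the 0.715th and 3.30th percentile in H358, the 0.792nd and 1.26th in H2009, the 0.509th in HCC95 and the 1.52nd in BICR31. By q the same peaks stood at the 30.1st and 58.5th percentile in H358, the 22.2nd and 31.6th in H2009, the 4.81st in HCC95 and the 81.8th in BICR31. Ishikawa scores there were 323 and 364, at the 82.9th and 84.7th percentile. The peak nearest the MYC start was thus among the lowest of its list by fold in 6 libraries. By q HCC95 alone was under the 10th percentile, and BICR31 stood at the 81.8th. The 2 Ishikawa lists stood among the higher ranks by score. Score is another measure, so these ranks cannot be set against those by fold.

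**Figure D3:**
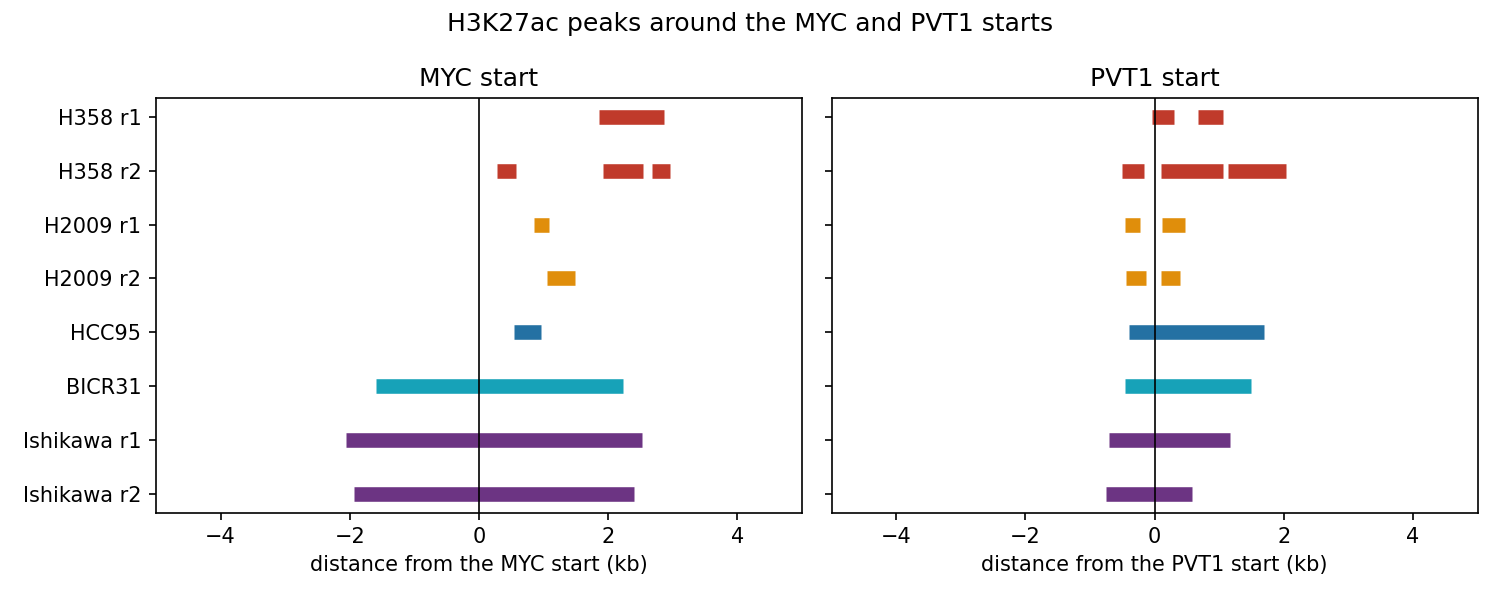
Extent of the peaks within 5 kb of the MYC start (left) and of the PVT1 start (right) in each library of unmodified cells, against the distance from that start in kb. At MYC, peaks of BICR31 and Ishikawa span the start and the other 5 lists have peaks after it; at PVT1 every list has a peak within 0.122 kb of the start.

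At the PVT1 start, in the region 128806031 to 128808820, the distance from the start to the nearest peak was at most 0.122 kb in all 8 libraries, against up to 1.86 kb at MYC. Folds of that peak were 3.81 and 3.92 in H358 and 3.60 and 4.48 in H2009, with HCC95 at 3.37 and BICR31 at 3.97, at the 6.80th and 9.55th, the 3.77th and 23.8th, the 24.7th and the 58.0th percentile. These percentiles were spread more widely than at MYC. Ishikawa scores were 243 and 215, below those at MYC. In every narrowPeak or broadPeak list the fold at the PVT1 start was above that of the nearest peak to the MYC start.

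Between the 2 genes, 1 region was called, 128772109 to 128773657, 24.6 kb after the MYC start. It had peaks in both Ishikawa libraries (scores 185 and 269), HCC95 (fold 3.51) and BICR31 (fold 3.91), and none in H358 or H2009. The lists without a peak there were the narrowPeak lists, so type of line and form of list cannot be told apart.

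PVT1 held 11 and 14 peaks in H358, 12 and 18 in H2009, 3 in HCC95, 13 in BICR31, and 8 and 10 in Ishikawa. Called bases there were 3725 and 6839 in H358, 3926 and 6260 in H2009, 4963 in HCC95, 20056 in BICR31, and 22933 and 14444 in Ishikawa. PVT1 took 31.1% to 33.8% of the domain's called bases in Ishikawa, its largest share among the parts of the domain, and 9.98% in HCC95. HCC95 had 3 peaks in PVT1 and 14 in the last 500 kb before MYC, while Ishikawa had 8 and 10 in PVT1 and 0 in those 500 kb.

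All 3 HCC95 peaks of PVT1 lay in regions with a peak in every library. Beside the one at the PVT1 start these were 128821698 to 128825130 and 128864086 to 128868357. At 128821698 the highest folds were 5.27 and 5.48 in H358 and 6.37 and 3.58 in H2009, with HCC95 at 3.34 and BICR31 at 3.62, and Ishikawa scores were 119 and 73.0. At 128864086 the highest folds were lower in 5 of these 6 lists, with 4.42 and 4.61 in H358 and 3.38 and 3.60 in H2009, with HCC95 at 2.87 and BICR31 at 2.69, while Ishikawa scores were higher, at 207 and 321. The region 128887895 to 128890002 had peaks in both lines of lung adenocarcinoma and in BICR31, each narrowPeak list with 2 peaks of fold 3.25 to 3.53, and none in HCC95 or Ishikawa. BICR31 had its highest fold of PVT1 there, 4.31.

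Among the 29 regions of PVT1, 2 were of Ishikawa only (6.90%, against 5.11% in the genome) and 2 of BICR31 only (6.90%, against 21.9%). The region 128875350 to 128880346 (4997 bp, scores 55.6 and 82.1) and the region 128829872 to 128834635 (4764 bp, scores 103 and 184) had peaks in both Ishikawa libraries and in no other. The wider of the BICR31 pair was 129046856 to 129048129 (1274 bp, fold 3.23). H2009 had 1 of its own, at 129060509 to 129061555, with highest folds of 5.28 and 4.82, and H358 had 1, at 128883237 to 128883867, with folds of 3.36 and 3.66. Replicates also differed. In H2009, 17 regions of PVT1 had a peak in at least 1 of its libraries and 6 in both. In H358 these numbers were 11 and 6, and in Ishikawa 12 and 6.

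Single enhancers in the lung window were compared by fold and summit, the position of highest signal, which the narrowPeak lists give. In all 6 regions of this window with a peak in both libraries of H358 or of H2009, H358 had peaks in both, and H2009 in 4. In those 4 the highest fold of each H358 library was above that of each H2009 library. Outside these 6 regions H2009 replicate 1 alone had peaks at 129252228 to 129252531, with a fold of 6.06 (70.4th percentile), and at 129262774 to 129263014, with 5.40. The first of these was its highest fold of the window and lay above the highest of H358 replicate 2, which was 5.38. At 129165435 to 129165971, 417 kb from MYC, fold was 7.96 and 5.38 in H358 and 4.05 and 4.24 in H2009. These were at the 90.6th and 51.2nd percentile in H358 and the 12.6th and 17.1st in H2009. This region had no peak in HCC95, BICR31 or Ishikawa.

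At 129139053 to 129140642, 392 kb from MYC, the highest fold was 5.33 and 4.22 in H358, 3.52 and 3.34 in H2009 and 3.39 in BICR31. At 129179990 to 129181426, 432 kb from MYC, it was 3.52 and 3.61 in H358, 2.71 and 2.94 in H2009 and 3.70 in BICR31. The region with a peak in every library, 129188080 to 129190370, 441 kb from MYC, had 4.24 and 3.72 in H358 and 2.61 and 2.68 in H2009, with HCC95 at 2.83 and BICR31 at 3.11, and Ishikawa had scores of 224 and 230. In H2009 those folds were at the 0.0707th and 0.155th percentile, while q stood at the 26.2nd and 42.8th. The region 129195033 to 129198581 had folds of 3.89 and 3.56 in H358, 2.89 in HCC95 and 2.54 in BICR31. The last, 129209589 to 129209919, had 5.34 and 4.58 in H358 and no peak in any other line. With 2 libraries a line the smallest exact permutation p is 0.333, so no order of the 2 lines in these regions could pass the threshold.

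**Figure D4:**
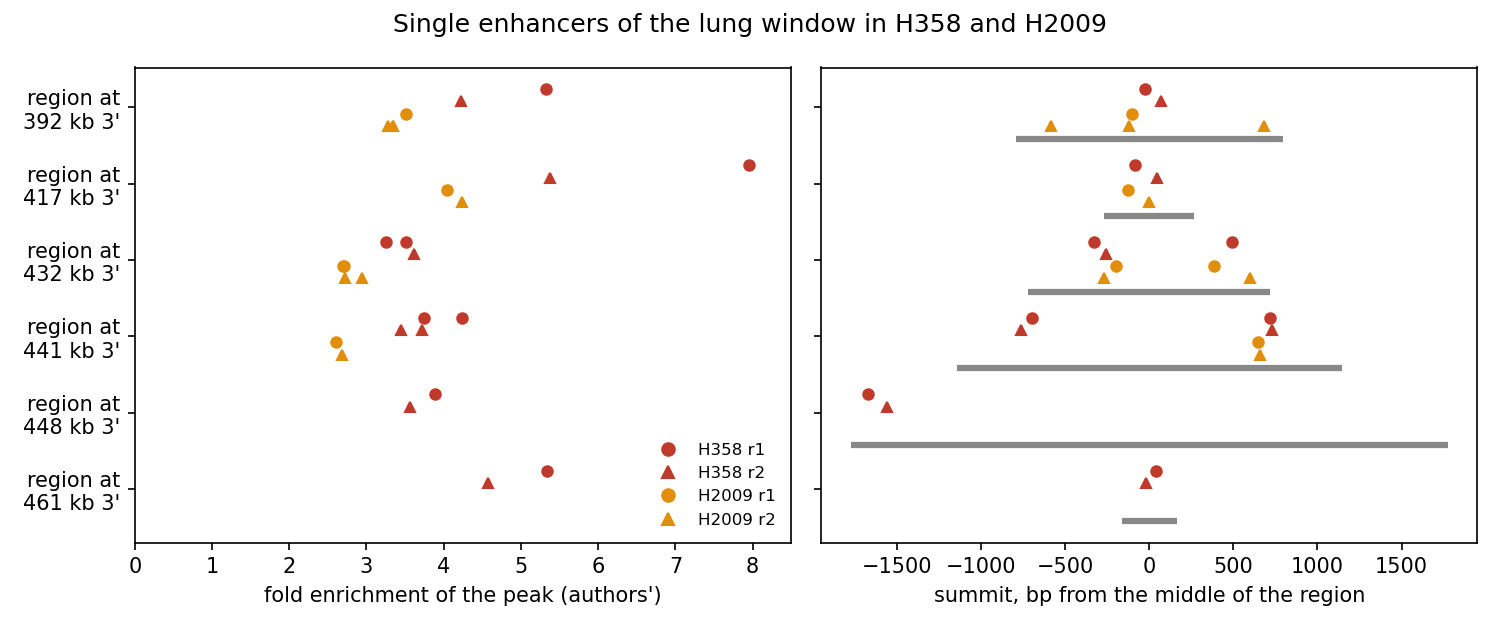
Fold enrichment of each peak (left) and its summit in bp from the middle of the region (right; grey bars, extent of the region) for the 6 lung window regions, with H358 above H2009. In the 4 regions where both lines have peaks, the highest fold of each H358 library lies above both H2009 libraries, and in the regions at 432 and 441 kb the summits form 2 groups.

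Summits of the leading peak fell close together in part of these regions. At 129188080 to 129190370 the leading summits of the 4 libraries lay within 84 bp of each other, 11 bp apart in H358 and 13 bp in H2009. H358 had a further peak there in each library, about the other end of the region, where neither unmodified H2009 library had one and the H2009 library labelled Empty had a peak at 129188532 to 129188824 (fold 2.87). At 129165435 to 129165971 the summits lay 42 to 173 bp apart. At 129179990 to 129181426 the leading summit of H358 replicate 1 stood 690 to 759 bp from the other 3, which lay 10 to 69 bp apart. H358 replicate 1 and both H2009 libraries had a peak at each of these places, and H358 replicate 2 at 1 of them. Over all 6 regions the median distance between leading summits was 104.5 bp within a line (10 pairs, 11 to 780 bp) and 78.5 bp between H358 and H2009 (16 pairs, 10 to 759 bp). In the genome these medians were 105 and 108 bp.

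Low fold beside a middling q was common from MYC to the end of the lung window in the lung adenocarcinoma lists. Setting this stretch apart was not planned, and it was chosen after the values had been seen. There 13 of 21 and 14 of 24 peaks of H358, and 11 of 22 and 16 of 27 of H2009, lay under the 10th percentile of fold of their list, 50% to 61.9% of them. In the rest of the domain the share was 4.65% and 13.6% in H358 and 23.3% and 21.9% in H2009, and over a whole list it is about 10% by construction. By q, 0% and 12.5% of the H358 peaks and 0% and 18.5% of the H2009 peaks of that stretch lay under the 10th percentile. In the rest of the domain the share by q was 2.33% and 15.9% in H358 and 10% and 3.13% in H2009. HCC95 had 4 of 7 under it by fold in that stretch, against 14 of 37 in the rest of the domain, and BICR31 6 of 24, against 16 of 78. In Ishikawa, by score, it was 2 of 12 and 1 of 13 in that stretch, against 5 of 18 and 3 of 19 in the rest. The contrast by fold was thus small in BICR31. In Ishikawa it ran the other way, but by score. A difference between Ishikawa and the other lines cannot be told apart from that between score and fold. In the lung adenocarcinoma lists fold and q rank the peaks near MYC differently, and the reason was not tested.

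**Figure D5:**
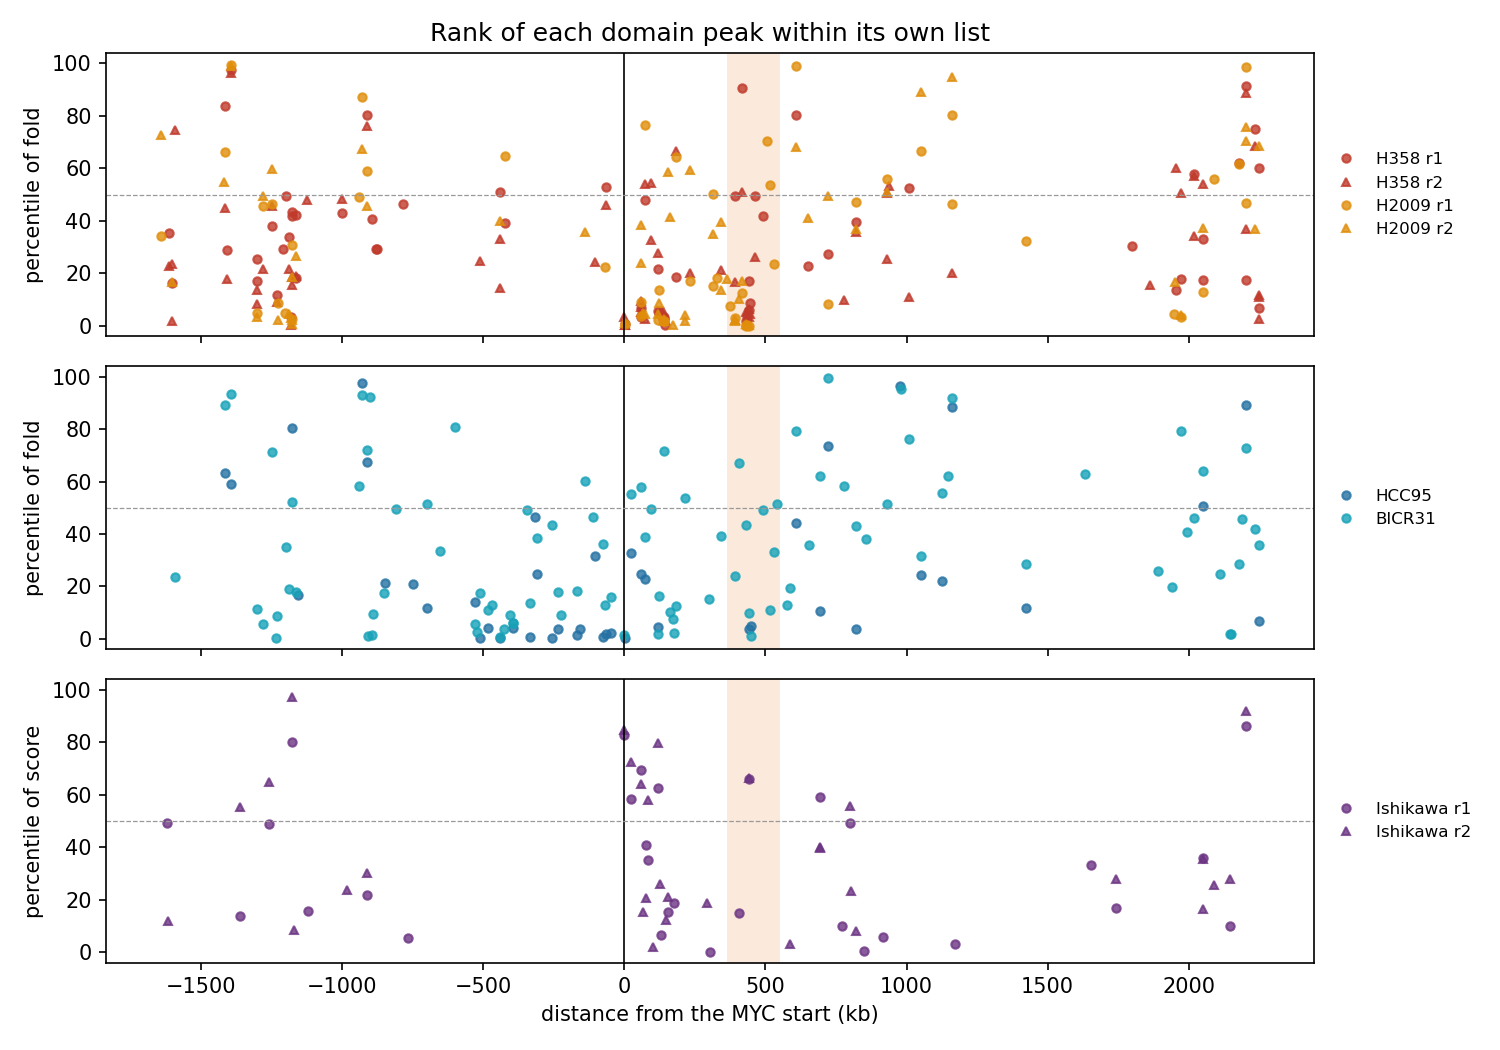
Percentile of each domain peak within its own list (vertical axis) by fold in H358 and H2009 (top) and in HCC95 and BICR31 (middle), and by score in Ishikawa (bottom), against the distance from the MYC start in kb; the lung window is shaded and the dashed line is the 50th percentile. From MYC to the end of the lung window 50% to 61.9% of H358 and H2009 peaks lie under the 10th percentile. In the last 500 kb before MYC the median is the 3.06th percentile in HCC95 and the 13.8th in BICR31.

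Beyond 129700000, from 952 kb 3′ of MYC, there were 13 and 14 peaks in H358, 11 and 9 in H2009, 8 in HCC95, 22 in BICR31, and 6 and 6 in Ishikawa, in 31 regions. Long stretches without a call lay in the middle of this flank, such as 791 kb in H358 replicate 1, from 129757431 to 130548354, and 260 kb in BICR31, from 130379808 to 130640003.

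The region 130950868 to 130953212, 2204 kb from MYC, had a peak in every library and the highest value of this flank in both H358 libraries, H2009 replicate 1 and both Ishikawa libraries. Its highest folds were 8.08 and 7.64 in H358 and 9.64 and 6.33 in H2009, with HCC95 at 4.90 and BICR31 at 4.35, and Ishikawa scores were 344 and 442, at the 86.1st and 91.9th percentile. In contrast to the peaks nearest the MYC start, these folds stood at the 72.7th to 98.8th percentile of the 6 lists. The other region with a peak in every library, 130798180 to 130800059, had middling values, with highest folds of 4.76 and 5.48 in H358 and 4.06 and 4.89 in H2009, with HCC95 at 3.81 and BICR31 at 4.11, and highest Ishikawa scores of 105 and 102.

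HCC95 and BICR31 had their highest folds of this flank at the same place, 129726659 to 129727171, 979 kb from MYC, with 5.51 and 5.75. It had no peak in any other library, and those folds were at the 96.2nd and 95.5th percentile. The next region of this pair, 129873070 to 129874565, had 3.33 in HCC95 and 3.92 in BICR31. The region 129909235 to 129910164, 1161 kb from MYC, had highest folds of 6.62 and 8.19 in H2009, 4.87 in HCC95, 5.32 in BICR31 and 4.37 in H358 replicate 2. The region 129798979 to 129800536 had 5.89 and 7.31 in H2009, 3.36 in HCC95 and 3.50 in BICR31, and no H358 peak. On the H358 side, 130765601 to 130766677 had 5.63 and 5.61 in H358 and 3.75 in BICR31 and no peak elsewhere. The widest region of 1 line or pair here was 130894675 to 130898207, 3533 bp, with Ishikawa scores of 59.1 and 85.3 and a BICR31 fold of 2.70.

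H358 was compared with H2009 in called bases, the one pair of lines of the same list form with replicates. On the 5′ side H358 had 10256 ± 631 called bases and H2009 6195 ± 868 (SD, n = 2 each), a difference of 4061 with no overlap between the lines (exact two-sided permutation p = 0.333). In PVT1 H358 had 5282 ± 2202 and H2009 5093 ± 1650 (SD, n = 2 each), a difference of 189, within the spread of the replicates (exact two-sided permutation p = 1). Beyond 129700000 H358 had 6262 ± 827 and H2009 4012 ± 442 (SD, n = 2 each), a difference of 2250 with no overlap (exact two-sided permutation p = 0.333). The smallest p this design allows is 0.333, so no difference could pass a threshold of 0.05. Adjusted over the 3 comparisons by Benjamini-Hochberg, the exact permutation p-values were 0.5, 1 and 0.5. On the 5′ side the difference was -442.5 in the higher-ranked 50% of each list, so its direction rests on the lower-ranked peaks.

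The 4 short H2009 lists bear on few places of the domain. They held 9 peaks for e3KRAB1, 1 for the library labelled e3KRAB2, 7 for Empty and 3 for Control, of lists of 2315, 1375, 1960 and 3250 peaks. None had a peak at the MYC or PVT1 start. Of the 30 regions of the domain with peaks in both unmodified H2009 lists, e3KRAB1 had a peak in 5 (12.6% of such regions in the genome), the library labelled e3KRAB2 in 1 (7.56%), Empty in 4 (10.4%) and Control in 3 (17.3%). With 1 library a group there is no test, and a place without a peak here is no sign of a loss.

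In the lung window e3KRAB1 had a fold of 3.91 at 129181029 to 129181340, and Empty had 4.43 at 129279380 to 129279721 beside the peak named above. In PVT1, e3KRAB1 had folds of 3.99 and 4.52 in the region 129060509 to 129061555 and Control had 4.05, the region that in unmodified cells was H2009 only. The library e3KRAB1 also had peaks in PVT1 at 128872459 to 128872753 (3.94) and at 128961350 to 128961664 (4.05), and Empty had 1 at 129088108 to 129088400 (3.26), which no unmodified list had. On the 5′ side, e3KRAB1 had 4.38 and Empty 4.33 in the region 127445299 to 127447942, and Empty had 5.49 in the strong region at 127353227 and 5.01 at 127836906. The e3KRAB1 peak at 128307291 to 128307585 (4.11) lay in the region 442 kb before MYC but overlapped no unmodified H2009 peak. Beyond 129700000, e3KRAB1 had 4.60 at 130951792 to 130952101, and e3KRAB1 and Empty shared the region 130983767 to 130984934 with 4.31 and 4.78. Control had 6.18 at 129909429 to 129909806 and 4.19 at 130720547 to 130720840. The only domain peak of the library labelled e3KRAB2, 129356029 to 129356323 (5.29), lay between the windows in a region with an H2009 fold of 10.0 and 5.96.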

How the data were processed

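H3K27ac was measured in 12 libraries, each with its own deposited peak list. Reads were aligned with BWA to hg19, per the submitters' processing notes; no source used here gives the control or any pooling. The narrowPeak and broadPeak lists hold, as deposited by the authors, a fold enrichment ratio, −log10 p and q-values and a score per peak; the narrowPeak lists add a summit offset, an other kind of value deposited by the authors. The Ishikawa lists hold 1 deposited score.

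From these, peaks on chromosomes 1 to 22 and X of the 8 unmodified lists were merged where they overlap by at least 1 bp, and each region was classed by the libraries with a peak in it. A region was of a line only if all its libraries and no other had a peak. Percentiles were taken within a list. Tests were exact permutation tests over libraries. Tools were Python 3.11.15, numpy 2.4.6 and matplotlib 3.10.9, tested on simulated peaks. The members, lists and named regions were chosen with earlier results of these data known. The rule named MYC, PVT1, regions in all libraries of at least 4 of 5 lines, the 3 widest regions of a line or pair per segment, the highest peak per segment and library, lung window regions in both libraries of H358 or H2009, and all peaks of the short lists; other regions were chosen after their values were seen. Alternatives were the higher-ranked 50% of each list, lists of equal length, stricter overlap, other origins and leaving out libraries. No hg19 annotation was used, and line identity was not checked against markers. Depth is unknown, so no interval is given.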

Additional observations from a re-analysis of the deposited data

How the results depend on the processing

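Many counts changed with the length of the lists. Keeping the higher-ranked 50% of each list lowers numbers of peaks by construction. With lists of equal length some counts moved by over 1.5 times and others did not. In the higher-ranked 50% of each list the domain held 63 regions, with 1 seen in every library. Of the regions 0 on the 5′ side were of HCC95 and BICR31 only, and 2, 1, 0, 13 and 3 were of H358, H2009, HCC95, BICR31 and Ishikawa only. Mean peaks, in the same order of lines, were then 4, 5, 5, 11 and 2 on the 5′ side and 1.5, 2.5, 0, 3 and 2.5 in PVT1. They were 6, 5, 4, 9 and 1 beyond 129700000, and in the lung window 1, 1, 0 and 2 in H358, H2009, HCC95 and BICR31.

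With lists of equal length by fold, 1 region on the 5′ side was of HCC95 and BICR31 only and 0 of the last 500 kb, 4 had a peak in every library, 17 were of HCC95 only and 12 of BICR31 only. BICR31 then had 14 peaks on the 5′ side, 4 in PVT1, 3 in the lung window and 11 beyond 129700000, H358 a mean of 5 in PVT1 and 4 in the lung window, and H2009 8 and 2. With equal length by q, added after the data had been seen, 5 regions on the 5′ side and 4 of the last 500 kb were of HCC95 and BICR31 only, 13 were of HCC95 only and 9 of BICR31 only, and BICR31 had 26, 9, 4 and 10 peaks in these parts. The 8 regions of the last 500 kb were thus 0, 0 and 4 in these settings.

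When peaks had to cover 50% of a region, 0 regions had a peak in every library, 11 were of HCC95 only and 56 of BICR31 only. Joining peaks within 1 kb, also added later, moved none of the 9 region counts by over 1.5 times, and neither any overlap in place of midpoints (20 counts) nor windows from the MYC 3′ end (5) moved a peak count that far. Without a replicate, regions of H358 only ran from 6 to 15 (15 without H358 replicate 1, 12 without replicate 2), of H2009 only from 2 to 10 (5 without H2009 replicate 1, 10 without replicate 2), and of Ishikawa only from 7 to 15 (14 without Ishikawa replicate 1, 15 without replicate 2); a line with 1 library needs 1 peak in place of 2. Regions of HCC95 and BICR31 only on the 5′ side stayed between 11 and 12.

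The mean Jaccard index of replicate pairs exceeded that of pairs of different lines by 0.131 in the narrowPeak lists alone (exact permutation p = 0.333, the smallest possible) and by 0.224 to 0.342 without a library. H358 minus H2009 in called bases reversed on the 5′ side in the higher-ranked 50% (-442.5), and in PVT1 there (-228) and with equal length (-729). In PVT1 it ran from -1368 without H358 replicate 2 to 1746, with -978 without H2009 replicate 1. With the replicate block, the sign-flip test over 2 pairs, the differences were 4061, 189 and 2250 with exact p-values of 0.5, 1 and 0.5, and 0.5 is the smallest possible. Same-numbered libraries did not deviate together (r = -0.00742, -0.0159 and -0.00728 over 9643 regions). These regions had peaks in all libraries of H358, H2009 and Ishikawa. The values therefore cannot show whether same-numbered libraries share an effect on which peaks are called. Neither design could pass the threshold, so the block says nothing about stability. The cause of these changes was not tested. Single libraries of HCC95 and BICR31, unknown depth and list form limit every comparison of lines.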
